A study of Mus musculus with 6 samples.

Results

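The transporters that carry bile acids and organic anions into the hepatocyte and out of it were followed on arrays of 6 mouse livers. The set was given as 10 named genes and found by matching probe accessions to gene symbols, and 9 of the 10 had a probe among 18342 genes measured. They were Slc10a1, Slco1b2 and Slco1a4 on the uptake side, Abcb11, Abcb4 and Abcc2 at the canaliculus, Abcc3 and Abcc4 for basolateral efflux, and the drug efflux pump Abcb1a. No probe matched Slco1a1 by accession, so its level was not analysed here. All 9 lay well above background on all 6 arrays except Abcb1a, which did so on 5, and all 9 passed the filter on dim genes.

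The livers came from mice on the BL6 background that all carried the Fah_del_tm1Mgo deletion, which removes fumarylacetoacetate hydrolase. This enzyme carries out the final step of tyrosine degradation. Such mice depend on NTBC, a drug that blocks the pathway upstream and was given in drinking water at 7.5 µg/ml as the full dose. FCR mice carried Rag2 and common gamma chain deletions in addition and so lack mature lymphocytes. The groups were healthy liver of Fah mice on continuous NTBC (n = 1), tumour of Fah mice after NTBC withdrawal (n = 2), normal liver of FCR mice on continuous NTBC (n = 1) and inflamed liver of FCR mice after withdrawal (n = 2). Within each withdrawn group replicate 1 carried the label off and replicate 2 the label 2xoff/on, and whether each was collected with or without NTBC is not settled by the labels. No age or sex is given in the labels, and nothing states that replicates were separate animals, so p-values measure the spread between these samples. Tissue type, genotype and regimen moved together: tumour was sampled in Fah mice alone and inflamed liver in FCR mice alone.

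Each array held 43379 spots, of which 60.5% to 74.5% lay well above background, and none was saturated. This share was lowest on the controls (60.5% healthy, 64.4% normal) and highest on the tumours (71.8% off, 74.5% cycled). The 75th percentile of the signal was 363 and 374 on the controls and 812 and 889 on the tumours. It was 363 on the off and 724 on the cycled inflamed array, so array brightness differed between the groups. Replicate 2 of each withdrawn group lay on one slide and the other 4 arrays on another, so slide, regimen and replicate cannot be told apart within those groups. The inflamed pair differed by a median of 0.754 (absolute log2 difference over genes), the tumour pair by 0.467 and the livers on continuous NTBC by 0.266. Il2rg, the common gamma chain, was well above background on all 3 Fah arrays (log2 levels of -3.40 to -1.94, with the 75th percentile of an array as 0) and on none of the FCR arrays. Rag2 was well above background on no array. Fah itself was measured on all 6 arrays at -2.85 to -0.97, but where its probe lies relative to the deletion is not known here, so it checks no label.

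Hepatocytes take up bile acids from sinusoidal blood, chiefly through the sodium-dependent Slc10a1 (NTCP) and the sodium-independent Slco family (OATPs), and secrete them into the canaliculus through Abcb11 (the bile salt export pump). Abcb4 flips phosphatidylcholine into bile, and Abcc2 (MRP2) exports conjugated bilirubin and glutathione conjugates there. Abcc3 (MRP3) and Abcc4 (MRP4) sit on the basolateral side and return conjugates and bile acids to blood. In cholestasis, uptake genes are known to be lowered and basolateral exporters raised, with control by nuclear receptors, hepatocyte transcription factors and NRF2, a transcription factor that its sensor KEAP1 releases under electrophile stress.

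Promoters are shown for 5 members that the results turn on: Abcc4, Slc10a1, Slco1b2 and Abcb11, which passed the test on withdrawal, and Abcc2, which separated without overlap. Abcb1a also passed, and its window, which holds no match to any of the motifs searched, is not printed. Each line gives the 250 bases upstream of an annotated start from RefSeq on GRCm38.p6, in the direction of the gene, and Abcc4 and Slc10a1 each have a pair of annotated starts. Capitals mark matches to 4 motifs searched on both strands: TGACNNNGC (the core bound by NRF2), TTGCNNCAA (bound by C/EBP factors), GTTAAT (a part of the HNF1 element) and AGGTCA (the nuclear receptor core).
Abcc2, chr19:43782058-43782307, plus strand: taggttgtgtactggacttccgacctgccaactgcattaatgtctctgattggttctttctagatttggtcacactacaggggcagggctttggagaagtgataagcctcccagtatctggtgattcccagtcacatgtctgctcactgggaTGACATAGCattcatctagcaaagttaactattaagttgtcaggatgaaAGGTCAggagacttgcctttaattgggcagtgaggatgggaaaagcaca
Abcc4, chr14:118706220-118706469, minus strand: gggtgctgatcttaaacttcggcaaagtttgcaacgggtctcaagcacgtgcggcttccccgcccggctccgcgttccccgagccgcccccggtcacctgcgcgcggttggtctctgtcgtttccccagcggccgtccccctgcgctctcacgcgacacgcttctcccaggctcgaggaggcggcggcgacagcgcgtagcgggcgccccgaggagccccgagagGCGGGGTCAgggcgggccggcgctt
Abcc4, chr14:118676932-118677181, minus strand: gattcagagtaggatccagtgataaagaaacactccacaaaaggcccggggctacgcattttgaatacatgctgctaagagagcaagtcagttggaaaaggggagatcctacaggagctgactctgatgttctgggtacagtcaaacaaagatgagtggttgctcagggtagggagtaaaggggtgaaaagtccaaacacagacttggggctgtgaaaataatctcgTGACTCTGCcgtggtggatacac
Slc10a1, chr12:80968706-80968955, minus strand: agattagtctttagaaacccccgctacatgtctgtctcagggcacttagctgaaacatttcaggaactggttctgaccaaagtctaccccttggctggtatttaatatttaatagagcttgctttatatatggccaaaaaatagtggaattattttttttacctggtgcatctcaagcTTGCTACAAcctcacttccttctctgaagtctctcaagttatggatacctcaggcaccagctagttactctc
Slc10a1, chr12:80968080-80968329, minus strand: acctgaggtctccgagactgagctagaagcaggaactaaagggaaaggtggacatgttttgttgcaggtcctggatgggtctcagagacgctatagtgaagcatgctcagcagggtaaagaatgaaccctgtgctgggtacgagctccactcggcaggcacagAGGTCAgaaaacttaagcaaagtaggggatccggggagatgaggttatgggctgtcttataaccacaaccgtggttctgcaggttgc
Slco1b2, chr6:141629268-141629517, plus strand: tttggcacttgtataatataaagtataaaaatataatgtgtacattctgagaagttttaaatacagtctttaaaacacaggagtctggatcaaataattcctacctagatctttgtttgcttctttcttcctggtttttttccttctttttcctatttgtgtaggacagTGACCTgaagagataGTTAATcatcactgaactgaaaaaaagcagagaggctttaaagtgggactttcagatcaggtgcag
Abcb11, chr2:69342617-69342866, minus strand: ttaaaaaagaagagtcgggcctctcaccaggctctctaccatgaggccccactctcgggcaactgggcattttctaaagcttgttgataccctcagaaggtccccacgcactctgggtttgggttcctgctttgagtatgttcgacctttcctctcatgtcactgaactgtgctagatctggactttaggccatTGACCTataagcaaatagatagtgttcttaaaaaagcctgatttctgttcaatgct
The motifs were chosen with a first search of these windows in view, and a match describes letters only. Promoter windows were found for 9 of the 10 genes, with none for Abcc3. Among 32851 mouse promoter windows of the same length, TGACNNNGC occurred in 10.2%, and among the members in Abcc2 and at both Abcc4 starts. TTGCNNCAA occurred in 1.74% of windows, and among the members in Slc10a1 alone. GTTAAT occurred in 6.43% of windows, and among the members in Slco1b2 alone. AGGTCA occurred in 14.0% of windows and in 5 of the 9 member genes: Abcb11, Slco1b2, Abcc2, Slco1a1 and the second window of Slc10a1. The windows of Abcb1a, Abcb4 and Slco1a4 held none of the motifs. In Abcb11 the match lay 51 to 56 bases upstream of the start, and in Slc10a1 the TTGCTACAA match lay 64 to 72 bases upstream. No match overlapped another.

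NTBC withdrawal was compared with continuous NTBC over both genotypes. Slc10a1, Slco1b2 and Abcb11 fell, and Abcc4 and Abcb1a rose. These 5 of 9 members passed limma's test at an adjusted p under 0.05, against 11.9% of 15382 genes tested (8.65% higher and 3.27% lower). At an unadjusted p under 0.05 the members numbered 7 of 9, against 25.9% of all genes. The count of 5 was 2 under quantile normalization or with the authors' values and 0 with a common signal floor. With that floor no gene of the 15382 passed, and the differences of Slc10a1, Slco1b2, Abcb11 and Abcc4 were unchanged. The median log2 difference of the 9 members was -0.35, beside -0.02 over all genes. Levels below are log2 of the processed signal relative to the 75th percentile of the same array, so that 0 is that percentile, and they are compared only within a gene. These are bulk livers, in which fewer hepatocytes and less RNA per hepatocyte cannot be told apart.

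**Figure D1:**
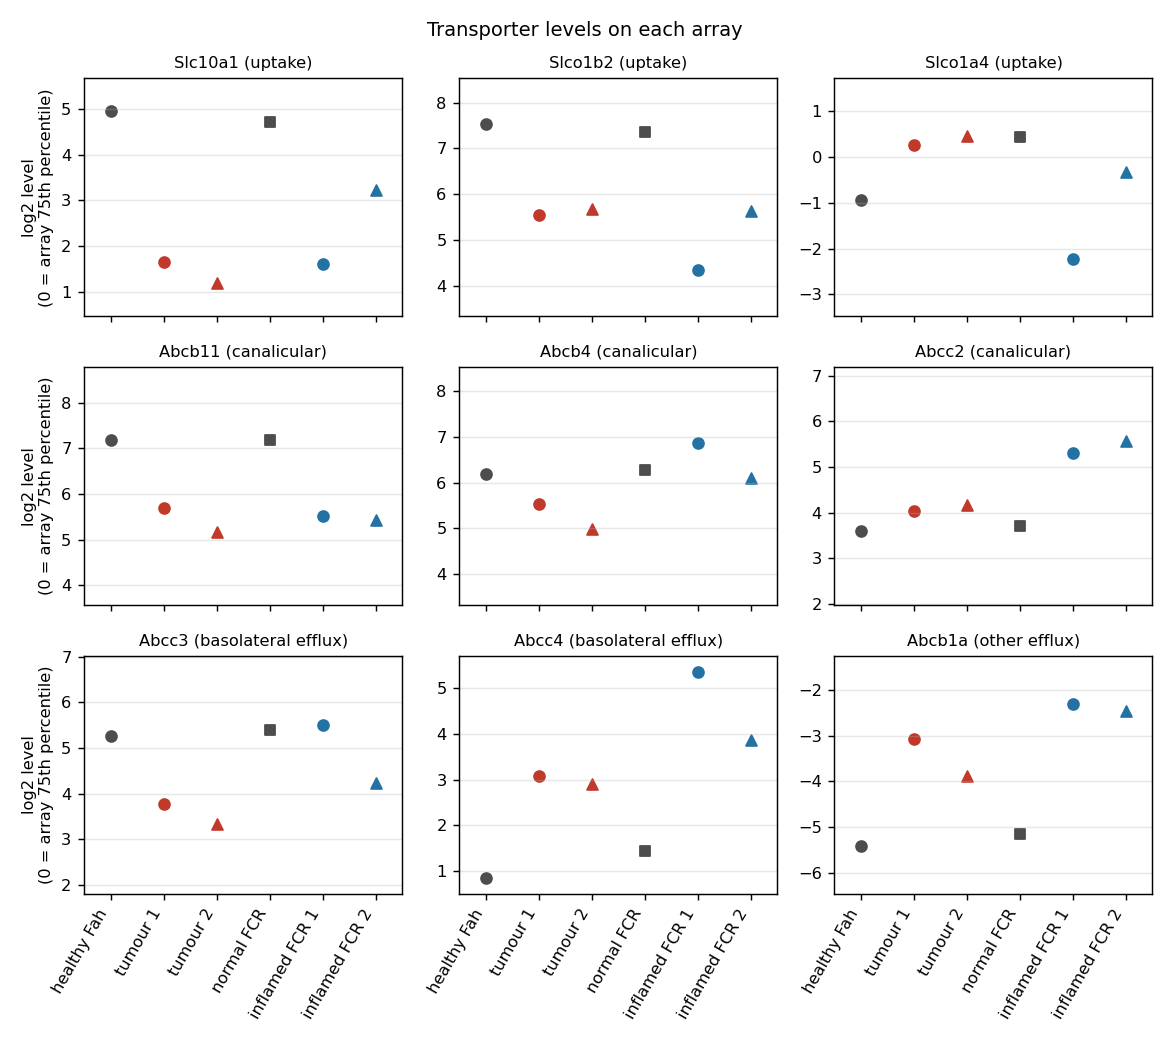
Level of each of the 9 measured transporters on every array, on a log2 scale with the array's 75th percentile as 0, with 1 point per array coloured by group. Slc10a1, Slco1b2 and Abcb11 are lower on all 4 withdrawn arrays than on both arrays of continuous NTBC, and Abcc4, Abcc2 and Abcb1a are higher; the healthy array of Abcb1a was not well above background.

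Slc10a1, the main carrier of conjugated bile acids into hepatocytes, had a level of 4.95 in healthy Fah liver, 1.65 and 1.18 in the tumours, 4.71 in normal FCR liver and 1.62 and 3.22 in inflamed FCR liver. Both arrays of continuous NTBC were close to each other, all 4 withdrawn arrays were lower, and the cycled inflamed liver was the least reduced. Slc10a1 fell by 2.91 ± 0.52 on the log2 scale (SE, n = 4 withdrawn and 2 continuous arrays), a 7.54-fold lower level, with limma adjusted p = 0.0090.

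Slco1b2, which takes up unconjugated bile acids, bilirubin and many drugs without sodium, had a level of 7.52 in healthy liver, 5.55 and 5.68 in the tumours, 7.36 in normal FCR liver and 4.33 and 5.63 in inflamed liver. The tumours lay within 0.13 of each other, while the inflamed livers were 1.29 apart. It fell by 2.14 ± 0.46 on the log2 scale, a 4.42-fold lower level, with limma adjusted p = 0.0185. The call was lost under quantile normalization and with the authors' deposited values.

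Slco1a4, an OATP that carries cardiac glycosides in rodents, had a level of -0.93 in healthy liver, 0.26 and 0.47 in the tumours, 0.44 in normal FCR liver and -2.23 and -0.32 in inflamed liver. The tumours lay above their healthy control and the inflamed livers below theirs, and over both genotypes the groups overlapped. Its difference over both genotypes was -0.21 ± 0.59 (95% interval -1.54 to 1.13, limma adjusted p = 0.874). The controls themselves were 1.37 apart for this gene, more than for any other member.

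Abcb11, the rate-limiting pump for bile salt secretion, had a level of 7.19 in healthy liver, 5.69 and 5.16 in the tumours, 7.17 in normal FCR liver and 5.51 and 5.43 in inflamed liver. The 4 withdrawn livers lay within a narrow band, and both controls were nearly equal. Abcb11 fell by 1.73 ± 0.39 on the log2 scale, a 3.33-fold lower level, with limma adjusted p = 0.0222. The same 2 settings ended this call, as did a fit without the intensity trend (adjusted p = 0.0505) and leaving out tumour replicate 2 (adjusted p = 0.0848).

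Abcb4, the phospholipid floppase whose product protects bile ducts from bile salts, did not share this pattern. Its level was 6.18 in healthy liver, 5.54 and 4.99 in the tumours, 6.27 in normal FCR liver and 6.86 and 6.09 in inflamed liver. The inflamed livers lay on either side of their control, and the difference over both genotypes was -0.35 ± 0.42 (95% interval -1.30 to 0.60, limma adjusted p = 0.670). A second, dimmer probe of Abcb4 gave -0.49 ± 0.81 for the same comparison.

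Abcc2, the canalicular exporter of conjugates, had a level of 3.61 in healthy liver, 4.04 and 4.17 in the tumours, 3.71 in normal FCR liver and 5.30 and 5.56 in inflamed liver. All 4 withdrawn arrays lay above both controls, with the inflamed pair highest. The log2 difference of 1.11 ± 0.38 did not pass (limma adjusted p = 0.104). Among the members, 3 were higher and 3 lower on every withdrawn array than on every control, and such separation was seen in 20% (higher) and 20.9% (lower) of all genes.

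Abcc4, the basolateral exporter of bile acids with glutathione and of cyclic nucleotides, had a level of 0.85 in healthy liver, 3.07 and 2.91 in the tumours, 1.43 in normal FCR liver and 5.36 and 3.87 in inflamed liver. All withdrawn arrays exceeded both controls by more than 1 on the log2 scale, and the inflamed pair exceeded the tumours. Abcc4 rose by 2.66 ± 0.50 on the log2 scale, a 6.34-fold higher level, with limma adjusted p = 0.0108. Its dimmer probe gave 2.09 ± 0.57 (limma adjusted p = 0.0486), with levels of -2.58 in healthy liver, -0.35 and -1.48 in the tumours, -2.06 in normal FCR liver and -0.23 and 1.14 in inflamed liver.

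Abcc3, the basolateral exporter of glucuronides, went differently. Its level was 5.26 in healthy liver, 3.78 and 3.33 in the tumours, 5.39 in normal FCR liver and 5.50 and 4.24 in inflamed liver. Both tumours lay below both controls, while one inflamed liver stood at the level of its control. The difference over both genotypes was -1.11 ± 0.47 (limma adjusted p = 0.175), and the sign turned to 0.19 ± 0.89 with its dimmer probe, so no direction is given for Abcc3.

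Abcb1a encodes a P-glycoprotein, which exports hydrophobic drugs. Its level was -5.41 in healthy liver, where it was not well above background, -3.08 and -3.89 in the tumours, -5.14 in normal FCR liver and -2.30 and -2.45 in inflamed liver. It rose by 2.35 ± 0.56 on the log2 scale (limma adjusted p = 0.0279), a value that rests on 1 measured control array of 2. With signals held at a common floor, the difference was 2.19 (adjusted p = 0.0814). The call depended on the handling of background: after normexp correction the difference was 0.34 (limma adjusted p = 0.640), and it was also lost under quantile normalization, scaling to array medians, the authors' values and without tumour replicate 1. Against the lowest signal measurable on the healthy array, it was at least 3.10-fold higher in tumour (limma adjusted p = 0.231), a direction that turned to -0.094 after normexp. Its near-identical relative Abcb1b has 3 probes that disagree in pattern, and cross-hybridisation between them was not tested.

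**Figure D2:**
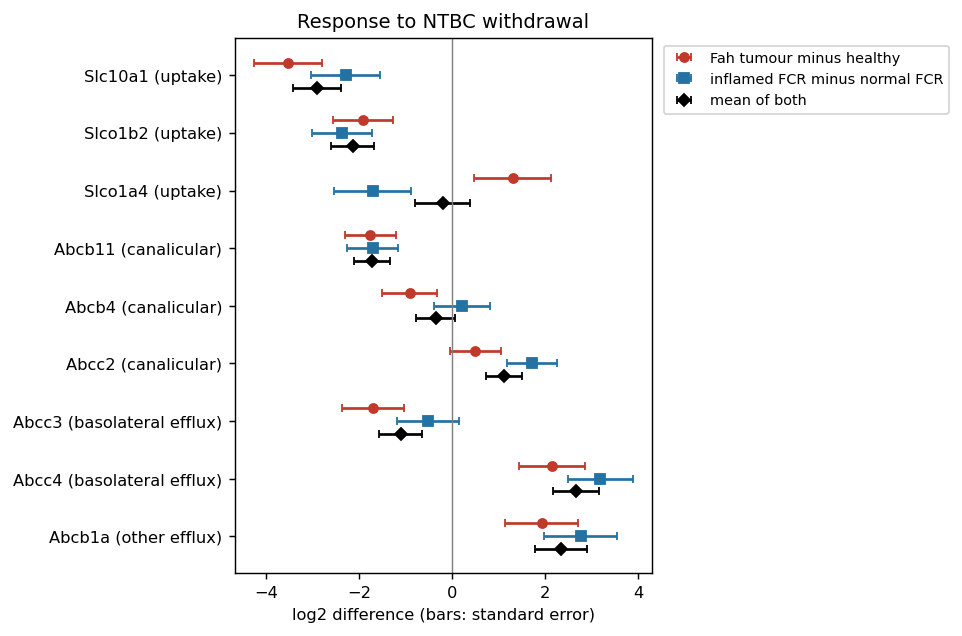
Log2 difference of withdrawn minus continuous NTBC for each measured transporter, over both genotypes and within each, with bars showing the standard error from limma. Slc10a1 is lowest and Abcc4 highest over both genotypes, and in that comparison the bars of Slco1a4 and Abcb4 include 0.

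Within Fah mice, tumour was set against the healthy liver; that array has no replicate and borrows its spread from the withdrawn pairs. Slc10a1 fell by 3.54 ± 0.74 on the log2 scale, an 11.6-fold lower level (limma adjusted p = 0.0302), and it was the 1 member of 9 that passed, against 5.04% of genes (3.91% higher and 1.13% lower). That call was lost under quantile normalization, without the intensity trend, with the authors' values and without tumour replicate 2. More members passed without either inflamed array, and the calls over all genes moved as well when an array was left out. At an unadjusted p under 0.05 there were 6 of 9 members, against 18.6%. Abcb11 differed by -1.76 ± 0.55 (adjusted p = 0.111), Slco1b2 by -1.91 ± 0.65 (adjusted p = 0.142) and Abcc4 by 2.14 ± 0.71 (adjusted p = 0.131). Abcc3 stood at -1.70 ± 0.66 (adjusted p = 0.206), with both tumours below healthy liver. The dimmer probe of Abcc3 gave -0.28 ± 1.25, with a level of -1.05 in healthy liver and -2.67 and 0.0088 in the tumours, on either side of it. On both tumour arrays 4 members lay above the healthy array and 5 below it, Abcc3 by its brighter probe, as did 35.8% and 42.8% of all genes. The median of the members was -0.91, beside -0.08 over all genes.

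Within FCR mice, inflamed liver was set against the normal liver. No member passed limma's test, against 1.76% of genes (1.55% higher and 0.202% lower), and 6 of 9 had an unadjusted p under 0.05, against 13.9%. Abcc4 came nearest, with a log2 difference of 3.19 ± 0.71 (adjusted p = 0.0657). Abcb1a differed by 2.76 ± 0.79 (adjusted p = 0.135). Slco1b2 differed by -2.38 ± 0.65 (adjusted p = 0.118), Slc10a1 by -2.29 ± 0.74 (adjusted p = 0.188) and Abcb11 by -1.71 ± 0.55 (adjusted p = 0.188). On both inflamed arrays 3 members lay above the normal array and 4 below it, as did 35.4% and 31.8% of all genes. The median of the members was -0.52, beside 0.04 over all genes. With slide as a block, 5 members passed in FCR liver and 4 in Fah liver. Calls over all genes rose too in that fit, from 270 to 1893 in FCR liver and from 776 to 2514 in Fah liver. Leaving out an array also changed the member count in FCR liver.

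Tumour and inflamed liver were then set against each other, which compares both tissue and immune status. No member passed limma's test, against 0.215% of genes (0.0715% higher and 0.143% lower), and 5 of 9 had an unadjusted p under 0.05, against 9.15%. All the efflux members except Abcb11 were lower on both tumour arrays than on both inflamed arrays, 5 in number (Abcb4, Abcc2, Abcc3, Abcc4 and Abcb1a), a separation seen in 23.8% of genes. Slco1a4 was higher on both, as were 16.1% of genes. The log2 differences were -1.63 ± 0.58 for Abcc4 (adjusted p = 0.404), -1.32 ± 0.44 for Abcc2 (adjusted p = 0.372), -1.21 ± 0.48 for Abcb4 (adjusted p = 0.492) and 1.64 ± 0.68 for Slco1a4 (adjusted p = 0.509). With slide as a block, which matches the arrays of both groups, Slco1a4 (1.64 ± 0.52, adjusted p = 0.0310) and Abcc4 (-1.63 ± 0.53, adjusted p = 0.0389) passed. Over all genes 970 passed in that fit, against 33 without the block. Abcb4 turned to 0.32 with its dimmer probe, and Abcc3 was -0.55 ± 1.02 with its own. With these dimmer probes the tumour and inflamed arrays overlapped for both genes.

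Abcb11 differed by -0.04 between tumour and inflamed liver, with a 95% interval of -1.06 to 0.98, and by 0.58 under quantile normalization. Slc10a1 was -1.001 ± 0.60 (95% interval -2.36 to 0.36) and Slco1b2 0.63 ± 0.53 (95% interval -0.57 to 1.83). Among livers labelled off, tumour and inflamed liver differed in Slc10a1 by 0.03, and among the cycled livers by -2.03. For Abcc2 the same differences were -1.26 and -1.39, and for Abcc4 -2.29 and -0.96. Each of these is a difference between 2 arrays, with no replicate check.

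**Figure D3:**
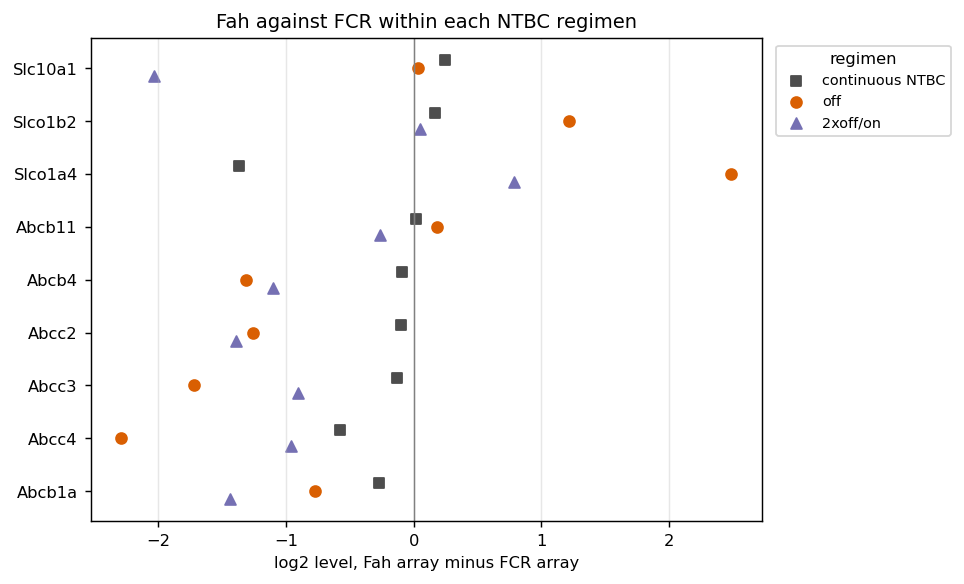
Log2 difference of the Fah array minus the FCR array for each measured transporter within each regimen. The points are healthy minus normal liver on continuous NTBC, and tumour minus inflamed liver for the off arrays and for the cycled arrays. Abcc2, Abcb4, Abcc3, Abcc4 and Abcb1a lie below 0 for both the off and the cycled arrays, while Slc10a1 and Abcb11 do not keep one side.

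The difference between the withdrawal responses of the genotypes was tested as an interaction. No gene passed (limma, 0% of 15382, smallest adjusted p = 0.790), while 2.15% of genes and 1 member had an unadjusted p under 0.05. That member was Slco1a4, at 3.01 ± 1.17 (adjusted p = 1.00). The median over the members was -1.05, beside -0.06 over all genes. The comparison in the series' design text set both tumours against normal FCR liver and the cycled inflamed liver. No gene passed (limma, 0% of 15175, smallest adjusted p = 0.112), and 11.6% of genes and 2 members had an unadjusted p under 0.05. These were Slc10a1 at -2.55 ± 0.58 (adjusted p = 0.317) and Abcc3 at -1.26 ± 0.50 (adjusted p = 0.432). Slc10a1, Abcc3 and Abcb4 were lower on both tumour arrays than on both others, as were 23.9% of genes, and no member was higher on both, as were 20.1% of genes. With the dimmer probes of Abcc3 (-0.85 ± 1.08) and Abcb4 (-0.75 ± 0.53) these arrays overlapped. The comparisons share arrays and are not independent of each other.

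On continuous NTBC, with 1 array per genotype and no test, healthy Fah and normal FCR liver were close for most members. Healthy minus normal liver was 0.24 for Slc10a1, 0.17 for Slco1b2, 0.02 for Abcb11 and -0.10 for Abcc2. The exceptions were Abcc4 at -0.58 and Slco1a4 at -1.37. Between the withdrawn livers, off minus cycled ranged from -0.21 to 0.82 over the members in tumour and from -1.91 to 1.49 in inflamed liver. In inflamed liver the off array was lower in the 3 uptake genes, by 1.60 in Slc10a1, 1.91 in Slco1a4 and 1.29 in Slco1b2, and higher by 1.49 in Abcc4 and 1.26 in Abcc3.

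The roles were summed up by averaging each class on the log2 scale relative to the healthy array. The uptake genes stood at -1.36 and -1.40 in the tumours, 0.32 in normal FCR liver and -2.61 and -1.01 in inflamed liver. Basolateral efflux stood at 0.37 and 0.07 in the tumours, 0.36 in normal FCR liver and 2.38 and 1.00 in inflamed liver. Uptake minus basolateral efflux was -1.74 and -1.47 in the tumours, -0.04 in normal FCR liver and -4.99 and -2.01 in inflamed liver. All 4 withdrawn arrays were below both controls in this difference, and the off inflamed liver was lowest. The canalicular class stood at -0.56 and -0.89 in the tumours, 0.06 in normal FCR liver and 0.23 and 0.03 in inflamed liver. In inflamed liver lower Abcb11 (-1.71 against normal liver) and higher Abcc2 (1.72) offset each other in this mean. In the tumours it joins lower Abcb11 (-1.76 against healthy liver) and Abcb4 (-0.91) with a smaller rise of Abcc2 (0.50). In the tumours, the uptake mean likewise joins Slco1a4, above the healthy array, with the lower Slc10a1 and Slco1b2. The basolateral mean joins Abcc4, above the healthy array, with Abcc3, below it by the brighter probe used here. The dimmer Abcc3 probe, at -2.67 and 0.0088 in the tumours, lay on either side of healthy liver (-1.05). These class values are descriptions with no test. The basolateral mean in tumour, 0.22 above healthy liver, turned to -0.14 when arrays were scaled to their median, and the canalicular mean in inflamed liver, 0.07 above normal, turned to -0.18.

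**Figure D4:**
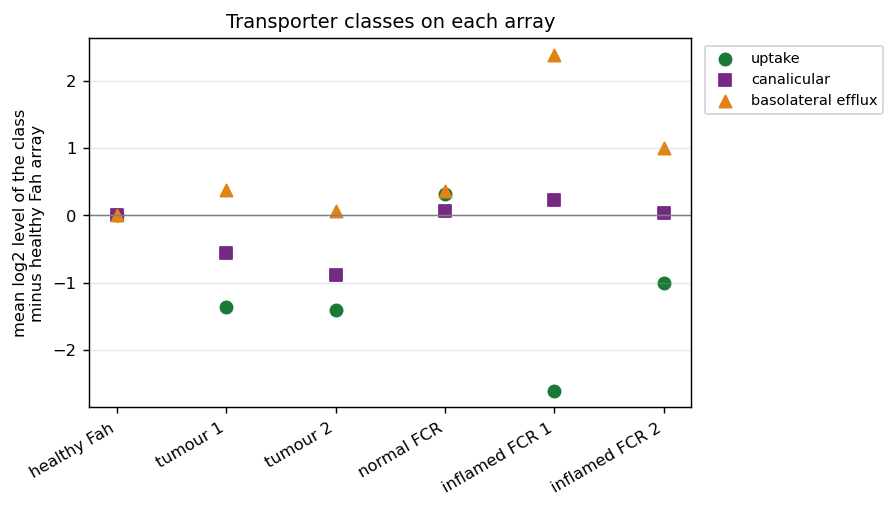
Mean log2 level of the uptake (Slc10a1, Slco1b2, Slco1a4), canalicular (Abcb11, Abcb4, Abcc2) and basolateral efflux (Abcc3, Abcc4) genes on each array, relative to the healthy Fah array. Uptake lies below 0 on all 4 withdrawn arrays, and basolateral efflux is highest, at 2.38, in the off inflamed liver.

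Other transporters of liver were counted from lists, beside the 8.65% of all genes that rose and the 3.27% that fell on withdrawal over both genotypes. Those shares belong to the fit as reported, with 1330 genes higher and 503 lower. Calls over all genes moved with the setting too, to 892 and 679 under normexp. List counts under other settings are therefore not to be read against those shares. With the common signal floor no gene of any list passed. Of 25 other solute carriers tested, 3 rose and 7 fell, with a median of -0.73, and 11 fell without inflamed replicate 2 or with slide as a block. Slc22a30 and Slc22a28, organic anion transporters of rodents, had the largest falls of the list in tumour against healthy liver. Slc22a30 fell by 5.88 ± 0.86 (limma adjusted p = 0.0098) and Slc22a28 fell by 5.47 ± 0.75 (adjusted p = 0.0080). In the same comparison Slco3a1 rose by 2.94 ± 0.64 (adjusted p = 0.0341) and Slco1a6, which was not well above background in healthy liver, was at least 3.72-fold higher (adjusted p = 0.0384). Slc51b, a subunit of the basolateral bile acid exporter OSTα-OSTβ, rose by 2.56 ± 0.47 over both genotypes (adjusted p = 0.0103), and was picked out after its values were seen. Its level was -2.59 in healthy liver, -0.94 and -0.31 in the tumours, -3.66 in normal FCR liver and -0.54 and -0.48 in inflamed liver, so that all 4 withdrawn arrays lay above both controls. Slc51a, the other subunit, was well above background on no array (-8.50 to -7.10).

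Of 22 other ABC transporters tested, 2 rose and 4 fell over both genotypes, with a median of -0.73; the share that rose is near the 8.65% of all genes, and 4 rose without inflamed replicate 2 or with slide as a block. Abcc6, which hepatocytes need for ATP release, had a level of 0.32 in healthy liver, -4.27 and -4.28 in the tumours, 0.81 in normal FCR liver and -5.11 and -2.06 in inflamed liver. It fell by 4.50 ± 0.79 (limma adjusted p = 0.0085). Abcc1 (MRP1), an exporter of glutathione conjugates, rose by 3.70 ± 0.66 in inflamed against normal FCR liver (adjusted p = 0.0322). Abcg8, which with Abcg5 pumps sterols into bile, fell by 3.38 ± 0.79 in tumour against healthy liver (adjusted p = 0.0450), and Abca8a fell by 2.91 ± 0.53 over both genotypes (adjusted p = 0.0097).

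Regulators of these genes were listed as well. Of 17 nuclear receptors and hepatocyte transcription factors tested, 0 rose and 2 fell over both genotypes (8.65% and 3.27% of all genes), with a median of -1.06 and 7 lower at an unadjusted p under 0.05. The 2 falls became 1 under quantile normalization or with the authors' values, where 276 and 260 of all genes fell, against 503 as reported. They became 4 under normexp, where 679 genes fell, or with slide as a block. Leaving out either inflamed array or tumour replicate 1 also raised the count. Cebpa, a factor of hepatocyte differentiation, fell by 2.39 ± 0.56 (limma adjusted p = 0.0258), and Nr1i3 (CAR), a receptor that senses xenobiotics and bilirubin, fell by 2.31 ± 0.43 (adjusted p = 0.0107). Of 14 enzymes and carriers known as NRF2 targets, 5 rose and none fell (8.65% and 3.27% of all genes), with a median of 0.75 that ranged from 0.45 to 1.18 over the scalings, and 4 to 7 rose when an array was left out. In inflamed against normal FCR liver G6pdx rose by 4.54 ± 0.58 (adjusted p = 0.0090), Srxn1 by 3.70 ± 0.55 (adjusted p = 0.0165) and Hmox1 by 3.43 ± 0.61 (adjusted p = 0.0322). The cystine carrier Slc7a11 was not well above background in either control, and was at least 34.3-fold higher in tumour and at least 488-fold higher in inflamed liver (adjusted p = 0.0046 in inflamed liver). From either array alone the limit was 18.0-fold to 65.5-fold in tumour and 258-fold to 922-fold in inflamed liver, the cycled array giving the lower value in both. All 14 had a lower mean in tumour than in inflamed liver, with a median of -1.98. None passed there, against 0.143% of all genes called lower, and 12 had an unadjusted p under 0.05, against 9.15% either way. The count of 0 became 7 under normexp, 1 with array medians and 10 with slide as a block. It also rose without either inflamed array or without tumour replicate 1. Lower calls over all genes moved too, from 22 as reported to 141 under normexp and 56 with array medians. With slide as a block 970 genes passed either way. Among 9 membrane scaffolds, 1 rose and none fell over both genotypes, a share near the 8.65% of all genes that rose, with 2 higher and 2 lower without inflamed replicate 2. Ezr, which ties membrane proteins to actin, rose by 3.09 ± 0.59 in tumour (adjusted p = 0.0236).

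Markers of cell types moved with these results, and are counted beside the same 8.65% of genes higher and 3.27% lower, shares that belong to the fit as reported. All 9 measured hepatocyte markers of 12 listed were lower on withdrawal, with a median of -1.11, and 1 passed: Tat, an enzyme of tyrosine breakdown, fell by 1.74 ± 0.39 (limma adjusted p = 0.0231). The median moved to -0.50 with the authors' values and -0.58 under quantile normalization, where none passed, as without the intensity trend. The count was 2 under normexp or with array medians, 5 with slide as a block, 3 without inflamed replicate 1 and 6 without inflamed replicate 2. The summed hepatocyte signal, in log2, was 11.9 and 11.7 in the controls, 10.7 to 10.8 in the tumours and 10.9 to 11.2 in inflamed liver. Of 10 bile duct markers 5 rose and none fell, among them Cldn7 by 5.77 ± 0.62 in tumour against healthy liver (adjusted p = 0.0037), and their sum was 3.73 and 3.72 in the controls, 7.34 and 6.08 in the tumours and from 4.39 to 5.94 in inflamed liver. Most of this summed signal came from Spp1 alone, at 3.18 and 3.01 in the controls, 7.13 and 5.61 in the tumours and from 3.73 to 5.70 in inflamed liver. Of 10 immune markers 4 rose and none fell, with sums of 3.69 and 3.42 in the controls, 4.55 and 5.51 in the tumours and from 3.99 to 5.05 in inflamed liver. Of 12 stellate and endothelial markers 3 rose and none fell, with sums of 4.43 and 4.39 in the controls, 6.77 and 6.10 in the tumours and from 5.13 to 6.04 in inflamed liver. By mean level 9 of the 12 were higher on withdrawal, and 3 endothelial genes (Kdr, Stab2 and Pecam1) were lower without passing. Kdr lay at 0.54 to 1.57 on the withdrawn arrays, below both controls (1.82 and 1.87). The brightest of the list on the off tumour array were Col1a1, Col1a2 and Col3a1, at 4.65, 4.75 and 4.99. Epcam, Krt7 and Krt19, epithelial genes of bile ducts, rose in tumour by 4.22, 3.66 and 3.58 (limma adjusted p = 0.0359, 0.0233 and 0.0205). The granulocyte gene S100a8 rose by 5.36 in inflamed against normal FCR liver (adjusted p = 0.0336), and over both genotypes Lyz2, Ptprc and Itgam of myeloid and other leukocytes rose by 2.88, 2.25 and 2.37 (adjusted p = 0.0395, 0.0281 and 0.0271). The collagen genes Col1a2, in tumour, and Col1a1 and Col3a1, over both genotypes, rose by 3.63, 2.86 and 2.42 (adjusted p = 0.0132, 0.0485 and 0.0335). Among the markers not well above background were Cftr on both controls and the cycled inflamed array, Itgam on the healthy array, Cd79a on the healthy and off inflamed arrays and Ms4a1 on the FCR arrays. The bile duct count was 3 with the authors' values, and its median of 2.24 was 1.34 under normexp. The immune count of 4 was 2 under quantile normalization or with array medians and 1 with the authors' values, and its median of 0.88 was 0.39 under normexp, 0.57 with array medians and 1.36 without inflamed replicate 2. The stellate and endothelial count of 3 was 1 with array medians, without the intensity trend or with the authors' values, 6 without inflamed replicate 2 or with slide as a block and 5 without inflamed replicate 1. Its median of 0.98 was 0.43 without inflamed replicate 1 and 0.62 without tumour replicate 1. The part of a change in cell types in the transporter results was not tested.

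Genes whose profile over the 6 arrays lay nearest to 3 of the members were found by the root mean square difference of centred log2 levels, among 12836 genes well above background on all arrays. The nearest to Slc10a1 was Homer2, at 0.293, followed by Afmid, Olfm3, C8g and Slc30a10. Abcb11 had Mxi1 at 0.122, and Wbp1l, Rsc1a1 and Pomt2 were also among its nearest. Abcc4 had Tiam2 at 0.162, then Ly6c1, Osbpl3, Pf4 and Cd274. These are likenesses of profile over 6 arrays and carry no test.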

How the data were processed

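RNA of 6 mouse livers was hybridised to Agilent single-colour arrays. The deposited scanner files hold an intensity per spot, background-subtracted by Feature Extraction 10.7.3.1 per the file headers (the submitters' processing notes name version 10.5) without scaling across arrays. The authors' deposited table holds log2 values per probe, used as an alternative; the sources used here do not give its scaling. Its array medians lay at 6.46 to 6.48, and values correlated with the log2 median signal at r = 0.996 to 0.999.

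Control and outlier spots were left out and spots of a probe averaged. Log2 of the processed intensity minus each array's 75th percentile was used. Accessions were matched to RefSeq names of GRCm38.p6 (the array design is on mm9 per the file headers): 26912 of 41145 probes were named, and the brightest probe stood for each of 18342 genes.

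A gene entered a fit if it was well above background on 2 or more of its arrays. Tests were two-sided, with limma 3.58.1 in R 4.3.3 (4 group means over 6 arrays, 2 residual degrees of freedom, intensity trend, Benjamini-Hochberg adjustment at 0.05). The number of arrays limits the precision. The fit was tested on simulated data. Of each list, the genes named are members that passed in any comparison, at most 4 by size of change; genes nearest in profile were 5 per member, and all members with a probe are reported. Some genes are not reported here. The members and lists were chosen with earlier results of these data known. Alternatives were normexp (offset 50), quantile normalization, array median, the authors' values, mean of probes, no trend, no filter, a filter on every array, slide and regimen as a block, each withdrawn array left out, and, chosen after seeing the data, dimmer probes and a common floor. Normal FCR liver was left out in the design-text comparison only, and healthy liver in none. The ranges from leaving out an array therefore do not test the lone controls in the withdrawal comparisons.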

Additional observations from a re-analysis of the deposited data

Results flagged for a closer look

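Slco1a4, an uptake carrier, moved opposite ways in the genotypes: both tumours lay above healthy Fah liver, by 1.30 ± 0.83 on the log2 scale, and both inflamed livers lay below normal FCR liver, by 1.71 ± 0.83 (SE, n = 2 against 1 array each). The difference of the responses was 3.01 ± 1.17, with an unadjusted p of 0.0309 and an adjusted p of 1.00 by limma over 15382 genes, so it did not pass. The controls stood 1.37 apart for this gene, healthy Fah liver being lower, and the lone control arrays carry no spread of their own.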

How the results depend on the processing

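With 9 members tested under 14 to 16 alternatives a comparison, 722 of 814 member results kept direction and side of the threshold, 21 lost the call, 38 gained it and 33 turned sign; the cause was not tested. The shared withdrawal count of 5 members became 2 under quantile normalization, 2 with the authors' values and 0 under a common floor at -5.12 (4 to 7 leaving out an array); Slc10a1 and Abcc4 passed in every setting except the common floor. In Fah liver the count of 1 became 0 under quantile normalization, without the intensity trend, with the authors' values and under the common floor, and 4 with slide as a block (0 to 5 leaving out an array: 0 without tumour replicate 2, 5 without either inflamed array). In FCR liver the count of 0 became 2 under normexp and 5 with slide as a block (1 to 4 leaving out an array). For tumour against inflamed liver 0 became 2 with slide as a block (0 to 3), and in the design-text comparison 0 to 5 leaving out an array, 5 without inflamed replicate 2. The labels give no replicate numbers, so arrays were matched across groups only through slide and regimen, which coincide within the withdrawn groups.

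Classes: uptake in tumour, -1.38, became -0.98 (quantile), -1.75 (array median) and -1.05 (authors' values); canalicular in tumour, -0.72, became -0.031, -1.09 and -0.047; canalicular in inflamed liver, 0.07, became 0.22 (quantile), -0.18 (array median) and -0.036 (mean of probes); basolateral in tumour, 0.22, became 0.64, -0.14, 0.62 (authors' values) and 0.46 (mean of probes).

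Sign changes, shared comparison: Abcb4 0.10 (quantile) and 0.026 (authors' values), Abcc3 0.19 (dimmer probe), Slco1a4 -0.68 to 0.27 leaving out an array. Tumour against healthy: Abcb1a -0.094 (normexp). Inflamed against normal: Abcb4 -0.044 (array median), -0.12 (mean of probes) and -0.45 (dimmer probe), Abcc3 0.074 (mean of probes) and 0.67 (dimmer probe). Tumour against inflamed: Abcb11 0.073 (normexp), 0.58 (quantile) and 0.58 (authors' values), Abcb4 0.32 (dimmer probe). Interaction: Abcb11 0.13, 0.54 and 0.60 under the same 3. Design text: Abcb1a -0.37 (normexp), Abcc4 -0.060 (mean of probes) and -0.46 (dimmer probe). Leaving out an array: inflamed against normal, Abcb4 -0.17 to 0.59 and Abcc3 -1.15 to 0.11; tumour against inflamed, Slco1b2 -0.014 to 1.28 and Abcb11 -0.31 to 0.23; interaction, Slco1b2 -0.18 to 1.11 and Abcb11 -0.32 to 0.21; design text, Slco1a4 -0.072 to 0.68, Abcb11 -1.75 to 0.0017, Abcc2 -1.45 to 0.40, Abcc4 -0.88 to 1.56 and Abcb1a -1.03 to 1.66.

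Over all genes the calls ranged from 0 to 3680 in the shared comparison (1833 as reported), 0 to 2514 in Fah liver (776), 0 to 1893 in FCR liver (270), 0 to 970 for tumour against inflamed (33), 0 to 91 for the interaction (0) and 0 to 2200 in the design text (0). The highest of these in Fah liver, in FCR liver, for tumour against inflamed and for the interaction came with slide as a block. The share of higher calls, 72.6% in the shared comparison, was 56.8% under normexp and 60.8% with array medians, which shifted the median of all genes by -0.18 and -0.31. Under the common floor, 361 of 15382 genes had both pairs of replicates at one value, so that their spread was 0.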
